A study of Mus musculus with 8 samples.

Results

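DNA methylation was described at the loci of Pmepa1 and Smad7, a pair of feedback genes of TGF-beta signaling, in tumors and lung metastases of the 4T1 model. The loci hold 578 of the 136069 measured positions (sites). Of these, 502 lay in the Pmepa1 window, on chromosome 2 from 173045000 to 173105000, and 76 in the Smad7 window, on chromosome 18 from 75525000 to 75558000, all in the coordinates of the deposited table. The samples were 3 lung metastases marked TVI, 3 lung metastases marked MFP and 2 primary mammary tumors marked MFP. All 8 were labelled as 4T1 mammary tumor cells of the BALB/c strain, a transplantable mouse mammary carcinoma line that spreads to the lung. MFP and TVI stand as in the labels, which spell out neither and give no age, treatment, time point or other genotype. Nothing in them ties a sample to an animal of its own, and p-values therefore cover the spread among these samples alone, which could be technical. With no TVI primary tumor at hand, TVI metastases differ from the tumors in both organ and label, and these cannot be told apart. A level is the percentage of calls at a site that were methylated, averaged over all cells of a sample, with any host cells in it. A shift in the mix of cells and a shift within cells therefore cannot be told apart.

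TGF-beta ligands bind receptor kinases at the cell surface, which phosphorylate receptor-regulated SMAD proteins. These join SMAD4 and enter the nucleus, where they regulate target genes. Smad7 encodes an inhibitory SMAD that binds the activated type I receptor, blocks the phosphorylation of other SMADs and recruits ubiquitin ligases to the receptor. Pmepa1, also called Tmepai, encodes a membrane protein that binds receptor-regulated SMADs and keeps them from the receptor. Both genes are induced by TGF-beta and dampen it. The pathway is known in mammary cancer for restraining growth early and for promoting invasion and spread later. Methylation in dense CpG stretches at gene starts is usually low, while most other CpG sites are methylated.

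Both windows were selected on methylation values of these same samples. Pmepa1 was chosen by sites that were higher in MFP metastases than in the tumors. Smad7 was chosen by a region on which the metastasis groups lay on opposite sides of the tumors. Values of MFP metastases against tumors, and all values of Smad7, are therefore given as a description with no p-value, and where a number of such sites or regions past the threshold is printed, nothing is read from it. Tests are given at Pmepa1 for TVI metastases against tumors and against MFP metastases. These comparisons share the tumors or the MFP metastases with the one by which the locus was chosen. That choice favors low tumor values and high MFP values. It thus favors TVI values above the tumors and below the MFP metastases, and p-values in those directions may be too small. The test is limma's, on the methylated fractions, and passes where the p adjusted over all sites or regions is under 0.05. Where a region holds sites by which Pmepa1 was chosen, its test was run without them, as a check added after the data were seen. This check keeps the neighbors of those sites, so it does not remove the effect of the choice.

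Whether the windows hold the named genes was checked first. The submitters' processing notes name mm10, but on chromosome 7 the last gene of GRCm38.p6, the assembly mm10 stands for, ended before 557 of the 3166 sites. The CpG spacing of RefSeq promoter sequences (GRCm38.p6) was matched to the spacing of the sites. On chromosome 2 the promoters of Gm29993 and Gm52569, below the Pmepa1 window, matched 12 of 12 and 10 of 10 sites at a shift of 174499 bp. The promoter of Stx16, 0.797 Mb above the window, matched 13 of 13 sites at a shift of 174498 bp. With either shift, Pmepa1 lay wholly inside the window and was the only gene there. No promoter sequence of chromosome 18 was at hand, so none was matched on it. There, 61 of 144 sites under 10% outside the window lay within 500 bp of a gene end at a shift of 159700 bp, against 55 at the next best shift more than 1000 bp away. At that shift Smad7 lay wholly inside its window, along with the predicted genes Gm20544 and Gm41776, so its placement rests on a weaker check. Exons, introns and start sites were not placed, since no annotation of the deposited build was used here. Pmepa1 is read from the minus strand and Smad7 from the plus strand, so the start of Pmepa1 faces the high end of its window and that of Smad7 the low end.

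The first site of the Pmepa1 window, position 173061974, averaged 92.6%, 84.97% and 84.5% in TVI metastases, MFP metastases and tumors. The nearest site below the window, position 172751184, averaged 95.3%, 95.0% and 93.1%. At the high end, position 173104960 inside averaged 90.9%, 91.3% and 83.2%, and position 173105006 outside averaged 91.3%, 92.9% and 88.6%. The first Smad7 site, position 75527669, averaged 1.09%, 1.49% and 0% in these groups, and the last, position 75541228, averaged 94.5%, 96.5% and 91.1%. The nearest measured sites outside that window, positions 73865284 and 80829734, were methylated in all groups, between 85.6% and 99.5% in group mean.

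The Pmepa1 locus carried more methylation in both kinds of lung metastasis than in the primary tumors. For MFP metastases this is the comparison by which the locus was chosen, so nothing is read from that difference. The mean over its 502 sites was 40.6%, 40.2% and 40.6% in the TVI metastases, 38.4%, 39.0% and 39.0% in the MFP metastases, and 33.8% and 33.8% in the tumors. The groups did not overlap, and the tumors were lowest. The Smad7 locus, a low-methylation locus in every sample, had another order. Its mean over 76 sites was 18.4%, 16.7% and 17.1% in the TVI metastases, 21.0%, 20.3% and 20.7% in the MFP metastases, and 18.5% and 17.4% in the tumors. The TVI metastases overlapped with the tumors, and the MFP metastases were highest. Over all 136069 sites, TVI metastases averaged 68.6% ± 0.0921 (SD, n = 3). MFP metastases averaged 67.4% ± 0.0396 (SD, n = 3), and the tumors 66.7% ± 0.223 (SD, n = 2).

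At Pmepa1, TVI metastases exceeded the tumors by 6.67 points on average, where a point is 1 percentage point of methylation, against 1.85 points over all sites. The median difference per site was 2.80 points at Pmepa1 and 0.68 points over all sites. In all, 391 of the 502 sites (77.9%) were higher in TVI metastases than in tumors and 108 were lower. Of all 136069 sites, 82809 (60.9%) were higher and 52794 lower. MFP metastases exceeded the tumors by 5.03 points on average at Pmepa1 and by 0.73 points over all sites. At Pmepa1 396 sites (78.9%) were higher and 103 lower, where 77727 of all sites (57.1%) were higher and 57713 lower. Since MFP metastases against tumors put the locus forward, nothing is read from this excess over all sites.

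With neighboring sites at most 500 bp apart joined, and at least 3 sites required, the Pmepa1 window formed 11 regions, numbered here by position. They hold all but 1 of its sites, and region 11 extends past the window by 2 sites. Regions 1 to 8 were mostly methylated, region 9 was mixed, region 10 was a stretch of 222 sites with little methylation, and region 11 stepped from low to high. In 10 of the 11 regions every TVI metastasis lay above both tumors and in none below both, where 60.2% and 13.4% of all regions did. In 10 of the 11 every MFP metastasis lay above both tumors and in none below, where 36.8% and 4.87% of all regions did. Again, the locus was chosen by this comparison, and nothing is read from the count. Every TVI metastasis lay above every MFP metastasis in 7 regions and below in 2, where 48.2% and 16.9% of all regions did.

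**Figure D1:**
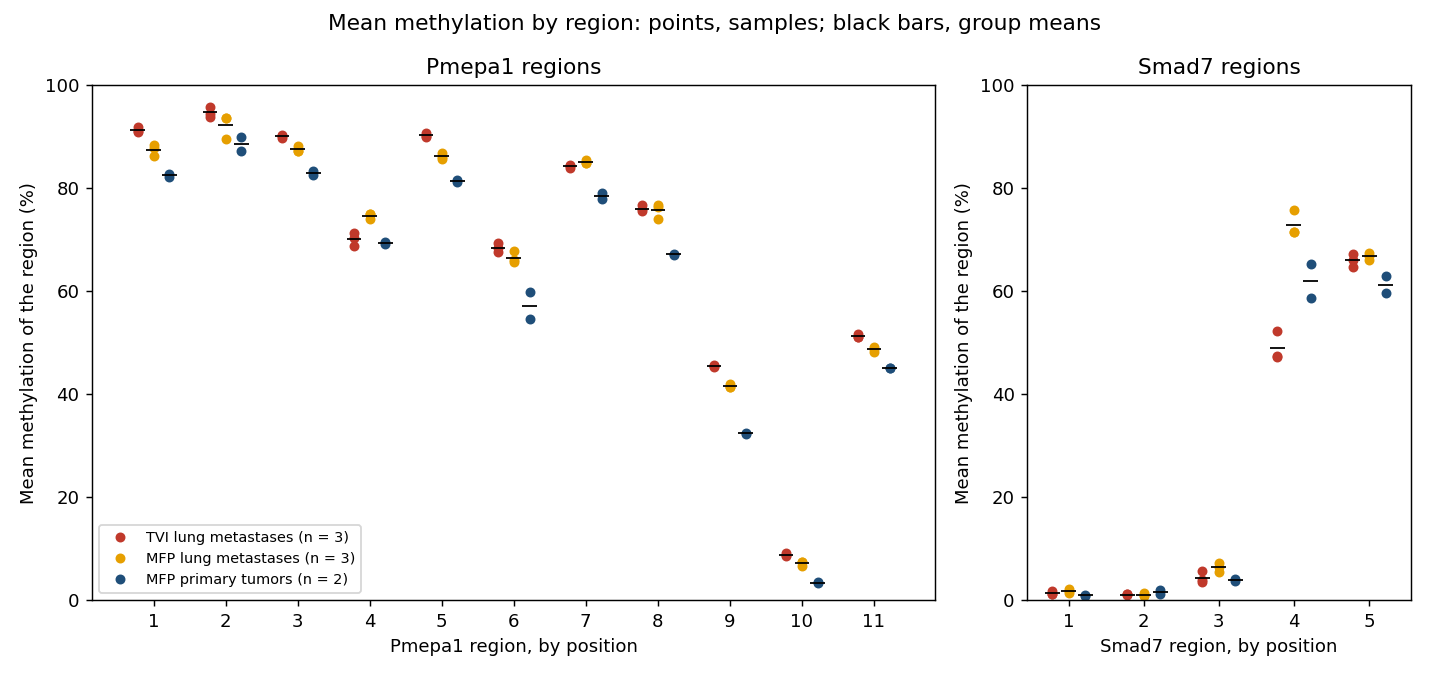
Mean methylation (%, vertical axes) of each region of the Pmepa1 locus (left, 11 regions) and the Smad7 locus (right, 5 regions) in 3 TVI metastases, 3 MFP metastases and 2 primary tumors, with points for samples and black bars for group means. The tumors have the lowest group mean in all Pmepa1 regions, overlapping with TVI metastases in region 4 and with MFP metastases in region 2, and Smad7 region 4 has TVI metastases below and MFP metastases above the tumors.

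Region 9, from 173082053 to 173088739 with 70 sites, rose in TVI metastases over the tumors. It stood at 45.7%, 45.5% and 45.3% in the TVI metastases, at 41.5%, 41.3% and 41.9% in the MFP metastases, and at 32.4% and 32.3% in the tumors. The groups were far apart compared with the spread inside each. The TVI metastases were 13.1 points and the MFP metastases 9.21 points above the tumors. Without the 2 of its sites by which the locus was chosen, TVI metastases were 12.3 points above the tumors (SE 0.424, limma adjusted p = 1.46e-06) and 3.76 points above the MFP metastases (SE 0.379, adjusted p = 8.65e-05).

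Region 10, from 173089288 to 173101210, is the long low stretch. It averaged 8.82%, 8.58% and 9.12% in the TVI metastases, 6.74%, 7.50% and 7.40% in the MFP metastases, and 3.32% and 3.52% in the tumors. The groups did not overlap. TVI metastases were 5.42 points above the tumors over all its sites, 9 of which are among those by which the locus was chosen. Without these 9, the remaining 213 sites averaged 7.56%, 7.41% and 7.88% in the TVI metastases, 5.69%, 6.25% and 6.19% in the MFP metastases, and 3.04% and 3.25% in the tumors. The rise of TVI metastases over the tumors was then 4.47 points (SE 0.268, limma adjusted p = 9.61e-06), and over the MFP metastases 1.57 points (SE 0.240, adjusted p = 0.000819). With all sites, the difference from MFP metastases was 1.63 points, and it fell to 0.36 points after quantile normalization and then did not pass (adjusted p = 0.339, the highest of 14 alternatives, of which the lowest was 0.000819).

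Region 11, from 173102193 to 173105044 with 64 sites, lies at the high end, which the start of the gene faces. It stood at 51.2%, 51.1% and 51.7% in the TVI metastases, at 48.2%, 48.7% and 49.1% in the MFP metastases, and at 45.1% and 45.0% in the tumors. TVI metastases were 6.29 points above the tumors. Without the 1 site by which the locus was chosen, they were 5.71 points above the tumors (SE 0.462, limma adjusted p = 2.99e-05) and 2.52 points above the MFP metastases (SE 0.413, adjusted p = 0.00121).

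The methylated regions of the locus also rose in TVI metastases, with region 4 as the exception. Region 5, from 173075185 to 173076848 with 23 sites, stood at 90.7%, 90.2% and 89.8% in the TVI metastases, at 85.95%, 86.9% and 85.7% in the MFP metastases, and at 81.5% and 81.1% in the tumors. The TVI metastases were 8.95 points above the tumors (limma adjusted p = 5.72e-06). Region 6, a group of 5 sites from 173077833 to 173077984, was 11.2 points higher in TVI metastases than in tumors. It averaged 68.4% ± 0.853 among TVI metastases (SD, n = 3) and 57.2% ± 3.65 among tumors (SD, n = 2). Without the 1 site by which the locus was chosen, the rise was 9.78 points (SE 1.58, limma adjusted p = 0.00106). Regions 1, 2, 3, 7 and 8 rose by 5.81 to 8.90 points. Region 1, from 173061974 to 173063842 with 27 sites, averaged 91.3% in TVI metastases, 87.4% in MFP metastases and 82.5% in tumors. Region 2, from 173067968 to 173068156 with 3 sites, averaged 94.7%, 92.2% and 88.5% in the same groups, and region 3, from 173068677 to 173069686 with 17 sites, averaged 90.01%, 87.5% and 82.9%. Region 7, from 173079643 to 173080559 with 13 sites, averaged 84.2%, 85.1% and 78.4%, and region 8, from 173081170 to 173081534 with 9 sites, averaged 76.02%, 75.7% and 67.1%. The metastasis groups were thus close to each other in regions 7 and 8 and both above the tumors. In regions 6, 7 and 8, TVI and MFP metastases differed by 1.87, -0.86 and 0.33 points, which did not pass the test, nor did the 2.46 points of region 2.

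Region 4, from 173070221 to 173074101 with 50 sites, did not follow the others. It stood at 71.3%, 68.8% and 70.2% in the TVI metastases, at 73.9%, 74.96% and 74.9% in the MFP metastases, and at 69.6% and 69.1% in the tumors. TVI metastases overlapped with the tumors, and were 0.78 points above them and 4.48 points under the MFP metastases. Without the 1 site by which the locus was chosen, the difference of 0.80 points from the tumors did not pass (SE 0.749, limma adjusted p = 0.395). TVI metastases then lay 4.12 points below the MFP metastases (SE 0.669, limma adjusted p = 0.00115). This is the direction that the choice of the locus favors.

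By limma's test, 10 of the 11 regions of the locus were higher in TVI metastases than in tumors and none was lower, and without the 14 sites by which the locus was chosen the count was also 10. Of all 3083 regions 59.3% were called, 49.6% higher and 9.67% lower. Between the metastasis groups, 6 of the 11 were called higher in TVI metastases and 1 lower, 7 in all with or without those sites, where 55.7% of all regions were called, 42.0% higher and 13.8% lower. For MFP metastases against tumors 10 of the 11 were called, all higher, beside 5.25% of all regions, 4.93% higher and 0.324% lower; nothing is read from that count, since the locus was chosen by this comparison. The median difference over the 11 regions was 7.11 points for TVI metastases against tumors, against 1.34 points over all regions. For TVI against MFP metastases these medians were 2.46 and 0.84 points. In 6 of the 11 regions, and in 559 of all 3083 (18.1%), the groups were ordered TVI over MFP metastases over tumors with no overlap. That order includes MFP metastases above tumors, by which the locus was chosen, so nothing is read from its count either.

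At single sites, 149 of the 500 Pmepa1 sites with any variation were called higher in TVI metastases than in tumors (29.8%) and 3 lower (0.60%). Among all sites 16.6% were called, 11.4% higher and 5.24% lower. Between the metastasis groups, 52 Pmepa1 sites were called higher in TVI metastases (10.4%) and 19 lower (3.80%), where among all sites 16.9% were called, 10.4% higher and 6.53% lower. The share called higher was that of all sites. After quantile normalization the numbers were 32 higher and 25 lower between the metastasis groups, and 22559 of all sites were called. The directions among all sites after that step are not given here, so whether this shift is particular to Pmepa1 cannot be told. Without the 14 sites that passed for MFP metastases against tumors, TVI metastases were called higher than tumors at 136 of 486 sites and lower at 3, a check added after the data were seen.

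For MFP metastases against tumors, 14 of the 500 Pmepa1 sites passed, all higher, out of 63 such sites in all. Among all sites 0.0464% were called, 0.0427% higher and 0.00368% lower, and nothing is read from the count. Of the 14 sites, 9 lie in region 10.

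Without a test, every TVI metastasis lay above both tumors at 251 of the 502 sites and below both at 25, where 26.4% and 12.7% of all sites were so placed. Every MFP metastasis lay above both tumors at 229 sites and below both at 18, where 14.5% and 8.11% of all sites were. Between the metastasis groups, TVI samples lay above at 97 sites and below at 42, against 17.9% and 10.9% of all sites. The order TVI over MFP metastases over tumors, with no overlap, was found at 60 of the 502 sites (11.95%), where 2.54% of all sites had it. The reverse order was found at 0 Pmepa1 sites, where 0.551% of all sites had it. At 3 sites the order was TVI metastases below the tumors and MFP metastases above them, an order of 1.33% of all sites. These orders, and the counts of MFP metastases against tumors, involve the comparison by which the locus was chosen, so nothing is read from them.

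**Figure D2:**
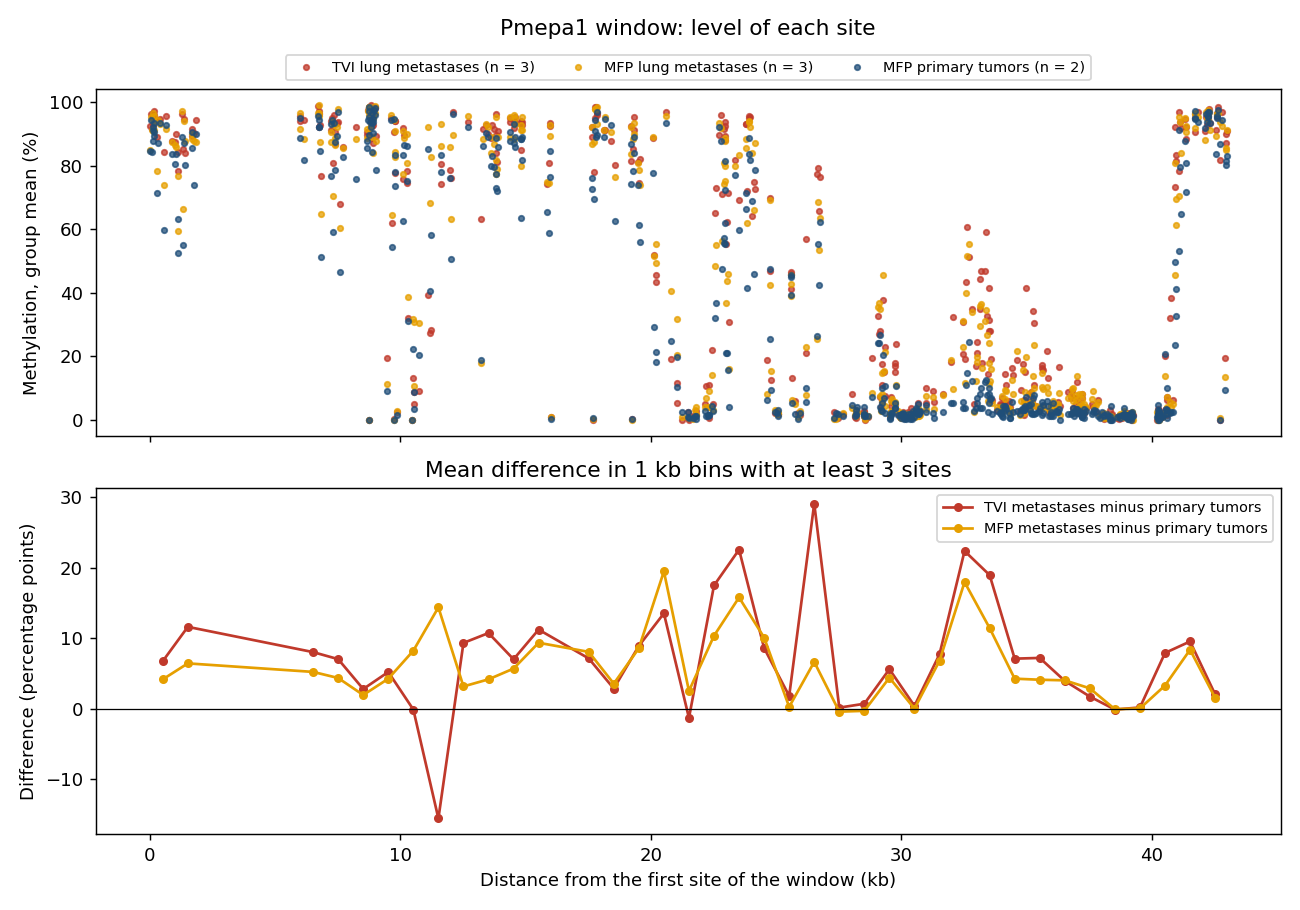
Methylation along the Pmepa1 window by distance from its first site (kb). The upper panel gives the group mean of each site (%) and the lower panel the mean difference from primary tumors in percentage points, in 38 bins of 1 kb with at least 3 sites; most bins lie above 0 in both metastasis groups, and near 11 kb TVI metastases fall below the tumors while MFP metastases lie above them.

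In bins of 1 kb with at least 3 sites, 38 in number, every TVI metastasis lay above both tumors in 28 bins and below both in 1, where 51.6% and 13.3% of all 10128 such bins were so placed. Every MFP metastasis lay above both tumors in 31 bins and below both in none, where 27.2% and 6.28% of all bins were. In 15 bins the order was TVI over MFP metastases over tumors with no overlap, an order of 10.8% of all bins. Nothing is read from that order or from the bins of MFP metastases against tumors, by which the locus was chosen. Levels were low in all groups in the bins from 173100000 and 173101000. There, 22 sites averaged 1.23% in TVI metastases, 1.27% in MFP metastases and 1.37% in tumors, and 18 sites averaged 1.27%, 1.14% and 1.118% in the same groups.

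Inside region 10, the widest differences by bin lay near its middle. The 11 sites of the bin from 173094000 averaged 31.7%, 27.95% and 32.96% in the TVI metastases, 24.0%, 27.8% and 27.6% in the MFP metastases, and 7.87% and 9.09% in the tumors. The 20 sites of the next bin, from 173095000, averaged 25.4%, 24.0% and 24.9% in the TVI metastases, 15.3%, 19.7% and 16.7% in the MFP metastases, and 4.80% and 6.79% in the tumors. All metastases lay above both tumors in these bins, and the TVI metastases above all MFP metastases. On the low side, the 30 sites of the bin from 173092000 averaged 2.32%, 1.92% and 1.94% in TVI metastases, MFP metastases and tumors. On the high side, the 18 sites from 173099000 averaged 3.70%, 4.87% and 2.002%.

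**Figure D3:**
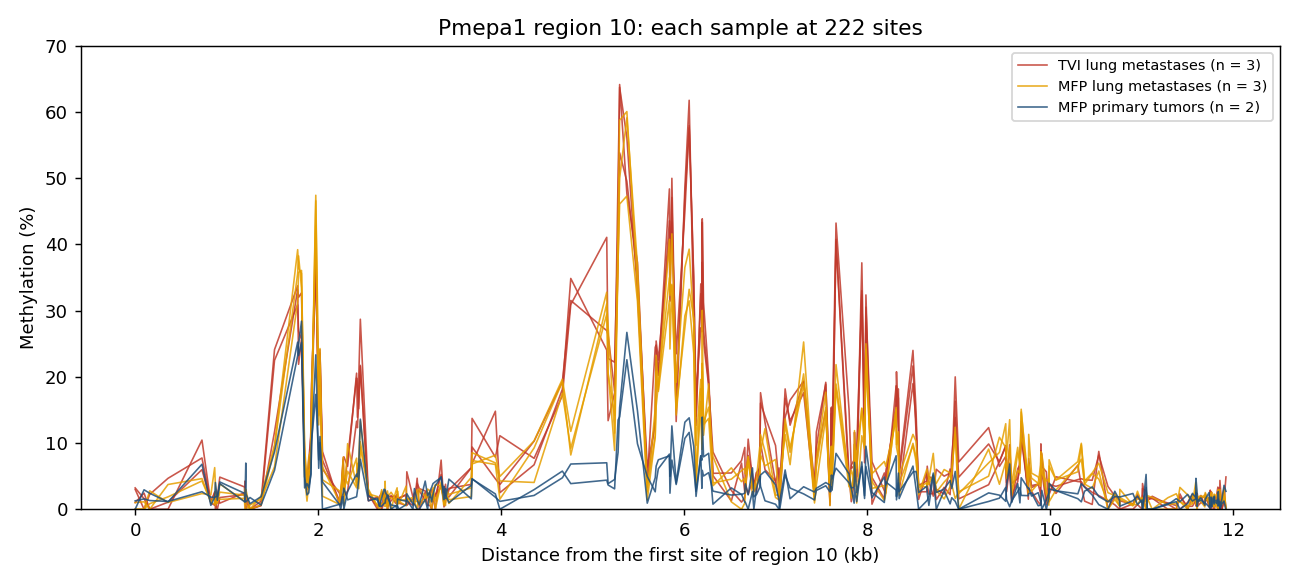
Methylation (%) of each sample at the 222 sites of Pmepa1 region 10, by distance from the first site of the region (kb), with 1 line per sample. TVI and MFP metastases peak together about 5 to 6 kb into the region, where the primary tumors stay low, and all samples are close to 0 at the far end.

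Among the 14 sites by which the locus was chosen, position 173094583 stood at 63.8%, 53.9% and 64.2% in the TVI metastases, at 46.1%, 50% and 58.8% in the MFP metastases, and at 14.0% and 15.3% in the tumors. The metastasis groups overlapped there, and both lay far above the tumors. Position 173082184, in region 9, stood at 42.7%, 45.6% and 48.8% in the TVI metastases, at 57.3%, 56.0% and 53.1% in the MFP metastases, and at 22.8% and 19.7% in the tumors. Position 173082193, near it but not among the 14, averaged 43.6%, 49.5% and 18.1% in the same groups. Position 173072539 stood at 9.41%, 6.93% and 10.1% in the TVI metastases, at 31.1%, 30.3% and 31.4% in the MFP metastases, and at 5.75% and 11.8% in the tumors. There the MFP metastases lay above all other samples, and the TVI metastases overlapped with the tumors.

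At some sites the groups stood in steps. Position 173085044 stood at 69.5%, 75.8% and 69.4% in the TVI metastases, at 47.3%, 46.5% and 43.7% in the MFP metastases, and at 16.4% and 15.1% in the tumors. This site is also 1 of those 14, and has no test here. Position 173102885, in region 11, stood at 72.8%, 74.9% and 72.0% in the TVI metastases, at 45.8%, 45.0% and 46.3% in the MFP metastases, and at 25.3% and 21.6% in the tumors. The groups did not overlap at either site. At position 173102885 TVI metastases were 49.8 points above the tumors (SE 4.03, limma adjusted p = 1.41e-05).

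Other sites rose in TVI metastases, with MFP metastases overlapping the tumors. Position 173088613 stood at 76.5%, 81.1% and 75% in the TVI metastases, at 19.2%, 26.2% and 30.7% in the MFP metastases, and at 31.6% and 21.3% in the tumors. TVI metastases were 52.2 points above MFP metastases at that site (SE 4.35, limma adjusted p = 1.005e-05). Position 173075185 stood at 66.3%, 61.96% and 61.3% in the TVI metastases, at 19.8%, 18.02% and 15.6% in the MFP metastases, and at 25% and 12.5% in the tumors, and TVI metastases were 44.4 points above the tumors (SE 4.025, limma adjusted p = 2.73e-05). At position 173102734, which is nearly unmethylated outside the TVI group, the levels were 35.9%, 42.9% and 36.4% in the TVI metastases, 2.48%, 5.26% and 4.08% in the MFP metastases, and 3.70% and 1.32% in the tumors, a difference between TVI metastases and tumors of 35.9 points (SE 2.34, limma adjusted p = 5.66e-06).

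A short stretch of region 4 went the other way. The 6 sites of the bin from 173073000 averaged 59.4%, 50.5% and 54.3% in the TVI metastases, 84.6%, 84.7% and 84.8% in the MFP metastases, and 70.4% and 70.2% in the tumors. Both metastasis groups stood apart from the tumors there, in opposite directions. The 3 widest differences below the tumors in TVI metastases with no overlap lay in this bin. Position 173073093 stood at 46.0%, 38.9% and 33.3% in the TVI metastases, at 89.5%, 94.6% and 92.98% in the MFP metastases, and at 90.8% and 80% in the tumors. The difference between TVI and MFP metastases was -52.9 points (SE 4.495, limma adjusted p = 1.117e-05). At position 173073185, TVI metastases averaged 28.2% ± 8.65 (SD, n = 3), MFP metastases 82.65% ± 3.64 (SD, n = 3) and tumors 58.1% ± 1.38 (SD, n = 2). Position 173073167 averaged 27.2%, 68.2% and 40.6% in the same groups, and its difference of -13.4 points between TVI metastases and tumors did not pass (limma adjusted p = 0.0678), though it passed in 3 of 13 alternatives, in which the adjusted p ran from 0.00708 to 0.325.

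Where MFP metastases lay below both tumors at Pmepa1, the differences were small. The widest were at positions 173102510, 173074101 and 173100337, where MFP metastases averaged 13.8%, 89.6% and 0.45%, against 20.6%, 96.3% and 4.28% in the tumors.

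The median differences were positive at every level of methylation. Of the 502 sites, 271 had a mean over the 8 samples of at most 20%, 85 lay between 20% and 80%, and 146 were at 80% or more. The median difference of TVI metastases from tumors was 1.005, 23.3 and 4.56 points in these classes, whereas sites of the same classes anywhere had medians of 0.34, 8.48 and 0.66 points. For MFP metastases against tumors the medians were 1.04, 15.7 and 3.23 points at Pmepa1 and 0.16, 1.80 and 0.37 points over all sites. Among sites between 20% and 80%, 57 of 85 were called higher in TVI metastases than in tumors (67.1%) and 3 lower, where 38.5% of all such sites were called higher and 16.3% lower. Of these 85 sites, 10 are among the 14 by which the locus was chosen, and they were not left out. The choice favors TVI values above the tumors, so this share may be too high. Nothing is read from the medians of MFP metastases against tumors, by which the locus was chosen.

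At Smad7 the wide differences between groups lay mostly in a short stretch. Of its 5 regions, the first 3, with 56 sites in all, were nearly unmethylated in every sample. Region 1, from 75527669 to 75528036, lies toward the end that the start of the gene faces. It averaged 1.41%, 1.77% and 0.93% in TVI metastases, MFP metastases and tumors, and region 2, from 75529050 to 75529649, averaged 1.11%, 1.05% and 1.66%. Region 3, from 75536221 to 75537891 with 22 sites, averaged 5.65%, 3.47% and 4.02% in the TVI metastases, 6.40%, 5.52% and 7.26% in the MFP metastases, and 4.08% and 3.76% in the tumors. The MFP metastases lay above both tumors in region 3, and the TVI metastases overlapped with both other groups.

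Region 4, from 75538929 to 75539188 with 8 sites, is the region by which this locus was chosen. It stood at 52.3%, 47.3% and 47.3% in the TVI metastases, at 75.7%, 71.4% and 71.4% in the MFP metastases, and at 65.3% and 58.6% in the tumors. The 3 groups did not overlap, with TVI metastases lowest and MFP metastases highest. The differences from the tumors were -13.0 points in TVI metastases and 10.9 points in MFP metastases. The SD was 2.88 points among the 3 TVI metastases, 2.45 points among the 3 MFP metastases and 4.74 points between the 2 tumors.

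**Figure D4:**
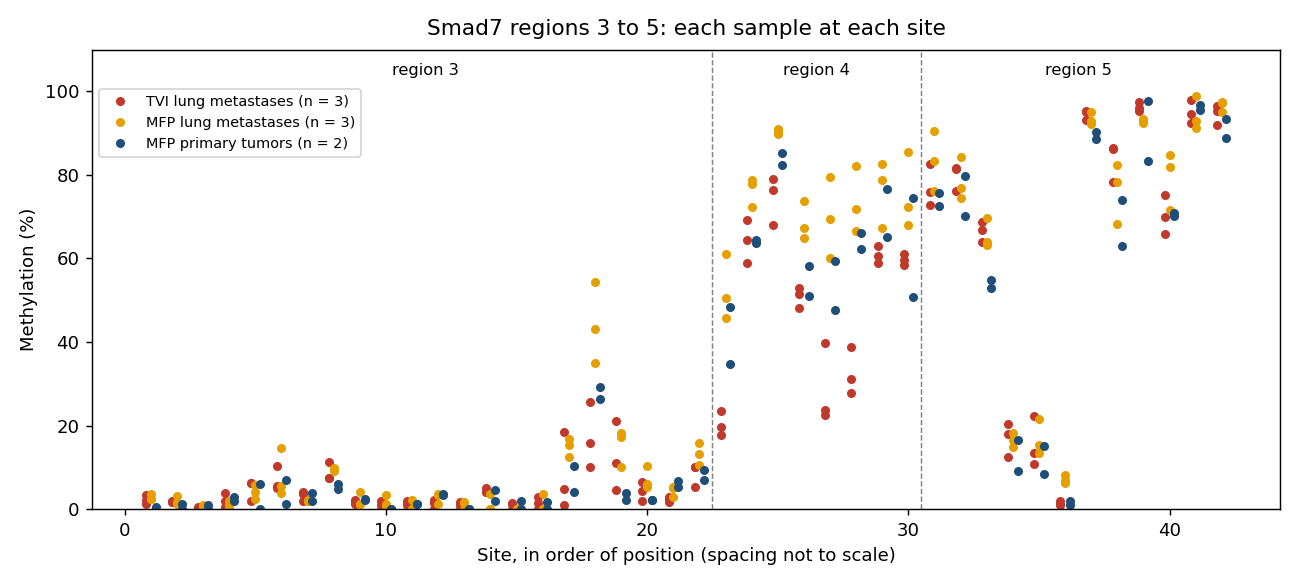
Methylation (%) of each sample at the sites of Smad7 regions 3, 4 and 5, in order of position with spacing not to scale, and dashed lines between regions. TVI metastases lie below MFP metastases at all 8 sites of region 4, while the groups run close together in most of regions 3 and 5.

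Inside Smad7 region 4 the differences varied from site to site. At position 75539106 the levels were 38.8%, 31.3% and 27.8% in the TVI metastases, 82.0%, 66.7% and 71.7% in the MFP metastases, and 66.2% and 62.2% in the tumors. Position 75539096 stood at 39.8%, 22.5% and 23.8% in the TVI metastases, at 69.5%, 60.0% and 79.6% in the MFP metastases, and at 59.5% and 47.8% in the tumors. The first site of the region, position 75538929, stood at 23.5%, 17.8% and 19.7% in the TVI metastases, at 50.6%, 61.1% and 45.9% in the MFP metastases, and at 48.3% and 34.7% in the tumors. At these 3 sites the TVI metastases lay below both tumors, by 21.2 to 31.6 points in group mean. At position 75538987 TVI metastases averaged 64.1%, MFP metastases 76.3% and tumors 64.1%, and at position 75539074 they averaged 50.9%, 68.6% and 54.7%.

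Beyond this stretch the groups ran closer. Region 5, from 75539695 to 75541228 with 12 sites, averaged 67.3%, 64.6% and 66.0% in the TVI metastases, 67.3%, 66.1% and 66.8% in the MFP metastases, and 63.0% and 59.6% in the tumors. Both metastasis groups lay above the tumors there and overlapped with each other. In region 3, position 75537734 stood above the sites next to it, at 25.6%, 10.2% and 15.9% in the TVI metastases, 43.0%, 35.0% and 54.3% in the MFP metastases, and 29.3% and 26.3% in the tumors. The widest differences of TVI metastases above the tumors at Smad7 with no overlap were at positions 75540976, 75539888 and 75537752, of 15.2, 12.7 and 9.30 points. The remaining non-overlapping sites named by the rule, positions 75537380, 75541162 and 75529540 for TVI over MFP metastases and positions 75529556, 75536326 and 75529251 for MFP metastases under tumors, differed by 1.91 to 3.24 points and by at most 2.63 points.

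At Smad7 the MFP metastases lay above both other groups with no overlap at 9 of the 76 sites and at 27 of the 502 Pmepa1 sites. That order held at 3.24% of all sites. The choice of both loci favors high values in MFP metastases, so nothing is read from these counts.

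The region of each locus with the widest range over the 8 samples was compared with all regions elsewhere, each centred on its own mean. For Pmepa1 region 6, the profiles nearest to it over the 8 samples lay on chromosome 7 from 29704996 to 29705527, on chromosome 9 from 21523831 to 21524057 and on chromosome 10 from 79599838 to 79601581, with root mean square differences of 1.66, 1.70 and 1.71 points. For Smad7 region 4 they lay on chromosome 15 from 77646086 to 77648323, on chromosome 11 from 54773332 to 54774057 and on chromosome 5 from 121135044 to 121135383, at 2.49, 2.62 and 3.87 points. The chromosome 15 region averaged 58.2% in TVI metastases, 77.7% in MFP metastases and 69.6% in tumors. No gene was placed in these regions.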

How the data were processed

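The values are fractions (beta values) from 0 to 1, deposited by the authors as 1 table for all samples, each the methylated share of a position's calls. Trimmomatic, Bismark and mm10 appear in the submitters' processing notes. For versions, settings, coverage filters and the choice of positions: not given in the sources used here. Per the labels' protocols, DNA was converted with a bisulfite kit, EZ-DNA Methylation Gold. The table has no read counts, so depth is unknown and no interval or floor was computed. The number of samples and their spread limit the precision. All 8 columns were matched to samples by title, with 0 columns of unlabelled samples.

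The members, gene lists and tests were chosen with earlier results of these data known. A linear model of the fractions, with a mean for each of the 3 groups and a variance trend, was fitted to the 8 samples together (limma 3.58.1, R 4.3.3, two-sided). Benjamini-Hochberg adjustment ran across the 135914 sites with any variation, or across the 3083 regions of at least 3 sites, with a threshold of 0.05. On simulated data for 135917 sites, with 3 samples raised at 200 sites, the fit for TVI metastases against tumors called 54%, 86%, 90% and 98% of sites raised by 10, 20, 30 and 40 points, and 8 of its 172 calls were false. The raised sites were drawn only from the less methylated ones, and no other difference was simulated. These rates may therefore not carry over to methylated regions. Every region of both loci is described. Sites were named as the 3 widest rises and 3 widest falls per locus and comparison among those whose groups did not overlap, plus sites and regions by which the loci were chosen, of which examples are given. A planned list of 60 TGF-beta pathway genes and 19 cell type markers is not reported, since 0 of their promoters could be placed among the 172 promoters matched by CpG spacing (at least 6 sites and 90% of sites matched). The labelled tissue was therefore not checked against markers. Alternatives were quantile normalization, a logit scale, leaving out each sample, fitting only the groups compared, a replicate block, a filter on range, and a joining distance of 250 bp.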

Additional observations from a re-analysis of the deposited data

Results flagged for a closer look

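Both metastasis groups were set against the same primary tumors, and their differences from the tumors were unlike in several regions when TVI samples were tested against MFP samples (limma). TVI metastases were higher at Pmepa1 region 1 by 3.84 points, region 3 by 2.53 points, region 5 by 4.07 points, region 9 by 3.89 points, region 10 by 1.63 points and region 11 by 2.66 points. The difference at region 10 was 0.36 points after quantile normalization and then did not pass (adjusted p = 0.339, lowest among its alternatives 0.000819). At Pmepa1 region 4 TVI metastases were lower, at -4.48 points. Among all 3083 regions 55.7% were called in this comparison, 42.0% higher and 13.8% lower, so such calls were common in the whole table. The values of regions 4, 9, 10 and 11 include sites by which the locus was chosen. Without those sites TVI metastases differed from MFP metastases there by -4.12, 3.76, 1.57 and 2.52 points, and each passed. At Smad7 region 4 the metastasis groups lay on opposite sides of both tumors, with TVI metastases at -23.9 points from MFP metastases, and this difference was not tested here because the locus was chosen by it.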

How the results depend on the processing

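At Pmepa1, 10 of 11 regions passed as higher in TVI metastases than in tumors under every alternative that formed the same regions, and when any sample was left out the number was 10 throughout. Against MFP metastases 7 regions passed when any sample was left out. Both counts were the same without the 14 sites by which the locus was chosen, an alternative added after the data were seen. With sites joined at 250 bp the regions are shorter and more numerous, and 32 were formed at Pmepa1. Of these, 25 passed for TVI metastases against tumors (24 higher, 1 lower) and 12 for TVI against MFP metastases (9 higher, 3 lower). For MFP metastases against tumors 16 passed, and nothing is read from that count. Among all regions formed at 250 bp, 3370, 3188 and 223 passed in these comparisons. How many regions were formed in all at 250 bp is not given here. Whether the shares at Pmepa1 exceed those of all regions at that distance therefore cannot be told. Quantile normalization turned the difference of region 4 between TVI metastases and tumors to -1.77 points (adjusted p = 0.0613, with 0.819 the highest of its alternatives), that of region 8 between metastasis groups to -1.42 points (adjusted p = 0.174, highest 0.989; it was also negative, at -0.57 points, without MFP replicate 3), and brought region 7 past the threshold between metastasis groups, at -1.73 points (adjusted p = 0.00448, highest 0.297).

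Leaving out 1 metastasis gave 124 to 152 Pmepa1 sites called for TVI metastases against tumors and 53 to 68 for TVI against MFP metastases. Among all sites these numbers were 17755 to 22671 and 18497 to 21262, where 22552 and 23001 had passed with all samples. Fits with a lone tumor, which is then assumed to vary like the other groups, are not counted here. For MFP metastases against tumors 14 Pmepa1 sites had passed, and 0 to 5 did without 1 metastasis: 5 without TVI replicate 1 and 0 otherwise. That number was 0 on the logit scale (173 at an unadjusted p under 0.05), 0 with a replicate block (167) and 0 with only the compared groups (168). It was 7 after quantile normalization (28 among all sites) and 47 with sites whose range was at least 5 points (526 among all). Pmepa1 regions called for MFP metastases against tumors numbered 9 to 10 without 1 metastasis.

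The counts at Smad7, like those for MFP metastases against tumors at Pmepa1, belong to comparisons by which the loci were chosen, and nothing is read from them. With all samples, 3 of the 76 Smad7 sites (3.95%) passed for TVI metastases against tumors, where 16.6% of all sites did. For TVI against MFP metastases 8 passed (10.5%, all sites 16.9%), and for MFP metastases against tumors 0 (all sites 0.0464%). Of the 5 regions 2 passed in each comparison, where 59.3%, 55.7% and 5.25% of all regions did. Without 1 sample, 1 to 4 sites passed for TVI metastases against tumors, 7 to 9 for TVI against MFP metastases and 0 for MFP metastases against tumors by limma, where 3, 8 and 0 had passed (16 of the last at an unadjusted p under 0.05). Regions numbered 1 to 3, 1 to 2 and 0 to 3 in the same comparisons, where 2 had passed in each. For TVI metastases against tumors, quantile normalization gave 5 sites and 1 region, and the range filter 5 sites. For MFP metastases against tumors, 0 regions passed by limma after quantile normalization, with sites joined at 250 bp, or with only the compared groups (5, 6 and 4 at an unadjusted p under 0.05). The cause of these changes was not tested. The deviations of same-numbered samples from their group means correlated by -0.0037 to 0.0172 across sites, and the numbers were not taken as pairs. This check cannot tell whether same-numbered samples share an animal, since deviations at single sites can be mostly counting error. With the replicate block, 135 and 66 Pmepa1 sites passed for TVI metastases against tumors and against MFP metastases, and 3 and 8 Smad7 sites. Among all sites 19628 and 21944 passed with it. Depth is unknown, so differences of a few points at single sites cannot be weighed against counting error.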

Other observations

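In the Pmepa1 window, 5 sites were at or near 0 in every sample (at most 5%) between neighbors within 500 bp that averaged at least 70%. Position 173070714 was listed at 0 in all 8 samples, between sites averaging 96.6% and 98.0%. Positions 173079661, 173081245 and 173104699 averaged 0.23%, 0.20% and 0.19% over the 8 samples, and position 173071844 averaged 2.29%. Among all sites 400 (0.294%) had this pattern, and 0 did at Smad7.

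Some sites of Pmepa1 region 9 were partly methylated with close group means. Position 173087564 averaged 46.5% ± 5.49 among TVI metastases (SD, n = 3), 45.7% ± 2.52 among MFP metastases (SD, n = 3) and 45.1% ± 3.28 among tumors (SD, n = 2). Position 173087569 averaged 46.0%, 42.7% and 45.65%, and position 173087579 averaged 41.1%, 39.0% and 39.2% in the same groups. These sites were chosen after their values were seen.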
